A study of Mus musculus with 6 samples.

Results

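The genes described are G3bp1 and 9 other genes of stress granule proteins (G3bp2, Caprin1, Usp10, Tia1, Tial1, Ubap2l, Atxn2, Pabpc1 and Fmr1), 10 of the 51912 genes in the count table, found by matching Ensembl IDs to GENCODE M21 symbols. The list was drawn up around G3bp1, which was already known to be lower in the knockout libraries, so G3bp1 was selected on its fold change and that difference is given as a description without a test. The other 9 were listed with results of the same contrast known, and their adjusted p-values support nothing beyond the values themselves. The 10 members were all found, and all passed the filter on low counts in both groups alike.

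RNA was profiled in 6 libraries of primary osteoblasts, the bone-forming cells, taken from the calvaria of C57BL/6J pups aged 1 d that carried Mark3 flox/flox alleles. The 3 WT libraries came from cells given GFP adenovirus for 24 h. The 3 Mark3-KO libraries came from cells given CRE adenovirus for 24 h, and their genotype is given as Mark3-/-. The groups share the floxed alleles and an adenovirus, and genotype and viral cargo changed together, so their effects cannot be told apart. Culture, litter and animal numbers are not given in the sources used here, so p-values cover only how these libraries vary, and that variation may be technical.

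Stress granules are clusters of mRNA and protein that form in the cytoplasm when translation initiation stalls, often after kinases phosphorylate the initiation factor eIF2 alpha. G3BP1 and its paralog G3BP2 are RNA-binding proteins that nucleate the granules, CAPRIN1 and UBAP2L promote that assembly, and USP10, a deubiquitinase, binds G3BP and opposes it. TIA1, TIAL1, ATXN2, PABPC1 and FMR1 are RNA-binding proteins that enter the granules with the stalled mRNAs.

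The promoters of the G3BP paralogs are shown because G3bp1 and G3bp2 had different levels in the knockout libraries. Each runs from 250 bases before to 50 bases after the RefSeq start (GRCm38.p6), and capitals mark the GC box (GGGCGG) and the CCAAT box (CCAAT) on either strand. The G3bp1 window is chr11:55469502-55469801 on the plus strand, and the G3bp2 window is chr5:92083549-92083848 on the minus strand, the one of its 3 windows nearest the annotated gene start.
G3bp1 promoter: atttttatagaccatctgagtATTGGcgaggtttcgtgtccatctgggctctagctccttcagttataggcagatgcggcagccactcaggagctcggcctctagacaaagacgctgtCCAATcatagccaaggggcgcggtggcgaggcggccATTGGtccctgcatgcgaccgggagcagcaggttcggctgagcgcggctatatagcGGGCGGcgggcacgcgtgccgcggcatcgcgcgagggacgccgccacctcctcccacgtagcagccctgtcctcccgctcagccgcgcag
G3bp2 promoter: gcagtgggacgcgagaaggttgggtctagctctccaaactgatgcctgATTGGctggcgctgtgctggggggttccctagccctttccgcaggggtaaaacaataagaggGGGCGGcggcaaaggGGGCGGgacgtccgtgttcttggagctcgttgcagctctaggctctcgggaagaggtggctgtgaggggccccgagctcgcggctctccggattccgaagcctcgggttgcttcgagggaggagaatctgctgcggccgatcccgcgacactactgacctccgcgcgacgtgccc

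The G3bp1 window held 3 CCAAT matches and 1 GC box, and the G3bp2 window held 1 CCAAT match and 2 GC boxes. Of 32841 RefSeq promoter windows of 300 bases, 37.4% held a CCAAT match and 35.7% a GC box. The windows were alike in base composition, with 64% GC and 30 CpG in G3bp1 and 64.7% GC and 26 CpG in G3bp2, against medians of 52.7% GC and 7 CpG over all windows. Among the 9 members with a window in the table, G3bp1 and G3bp2 were the ones with a CCAAT match. GC boxes were found 6 times for Caprin1, 5 for Ubap2l and 2 for each of Tial1, Atxn2 and Fmr1. They were found 0 times for Usp10 and Tia1, whose windows also had the lowest GC content (48.3% and 48%). Pabpc1 had no entry.

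G3bp1 (chromosome 11, 55469685 to 55504838, GRCm38, plus strand, protein coding) was lower in every Mark3-KO library than in any WT library. Its level was 256, 236 and 227 CPM (counts scaled to TMM-adjusted library size) in WT replicates 1 to 3 and 120, 97.3 and 82.5 CPM in Mark3-KO replicates 1 to 3. The counts behind these levels were 14900, 12992 and 15238 in WT, against 8811, 5798 and 5071 in Mark3-KO. The groups did not overlap, and the lowest WT library stood well above the highest Mark3-KO library. The means were 240 ± 14.5 and 99.8 ± 18.6 CPM (SD, n = 3 each), which is 41.7% of the WT level, beside 41.4% for Mark3 itself. The log2 fold change of Mark3-KO over WT was -1.26 (SE 0.15), and 8.67% of tested genes had a lower one. In bulk RNA, fewer cells of a type and less RNA per cell cannot be told apart. By rank among the 19017 tested genes, G3bp1 stood between 662 and 771 in the WT libraries and between 1710 and 2600 in the Mark3-KO libraries.

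G3bp2 (chromosome 5, 92052146 to 92083719, minus strand), whose protein can nucleate granules beside G3BP1, was at a similar mean level in both groups. Its values were 140, 157 and 165 CPM for WT, with 118, 174 and 192 CPM for Mark3-KO. The lowest and the highest value were both in Mark3-KO, so the groups overlapped. The means were 154 ± 12.8 and 161 ± 38.6 CPM, and the log2 fold change was 0.06 with an SE of 0.19 (Benjamini-Hochberg adjusted p 0.807, from the quasi-likelihood test of edgeR). Its fold change turned below 0 without WT replicate 1 (-0.01) or Mark3-KO replicate 3 (-0.08).

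Per kb of the longest annotated transcript, the paralogs were level in WT, with G3bp1 at 35.7 ± 2.17 and G3bp2 at 36.4 ± 3.02 CPM per kb. In Mark3-KO, G3bp1 stood at 14.9 ± 2.78 and G3bp2 at 38.0 ± 9.12 CPM per kb. The G3bp1 share of the 2 paralogs together reached 53.5, 48.7 and 46.5% in WT, against 39.1, 26.1 and 21.4% in Mark3-KO. Their sum was 72.1 ± 0.855 CPM per kb in WT and 52.9 ± 6.40 CPM per kb in Mark3-KO, with no overlap (71.2 to 72.9 against 45.6 to 57.6). The share depends on the length used: with all annotated exon bases it was 62.8 to 69.1% in WT and 34.5 to 55.5% in Mark3-KO.

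**Figure D1:**
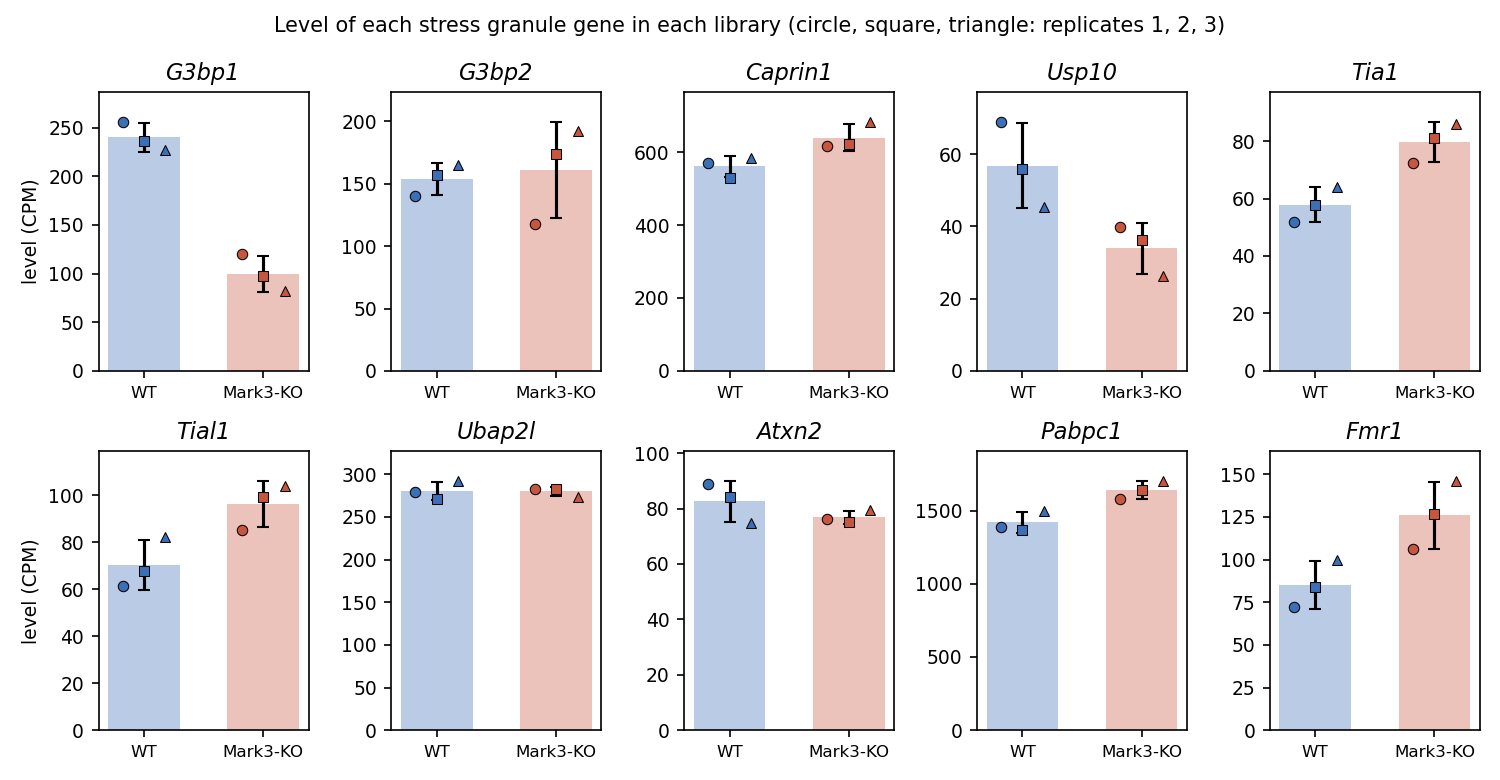
Level of each stress granule gene in CPM (y axis, from 0), with bars for the mean and error bars for the SD of 3 libraries in WT (blue) and Mark3-KO (red), and a symbol for each library. G3bp1 stands at 227 to 256 CPM in WT, against 82.5 to 120 in Mark3-KO, while G3bp2, Ubap2l and Atxn2 overlap between the groups.

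Of the assembly partners of G3BP, Caprin1 (chromosome 2) was at 571, 528 and 584 CPM in WT and at 617, 621 and 683 CPM in Mark3-KO. The Mark3-KO libraries were all higher, with 0.19 as log2 fold change (SE 0.09, edgeR adjusted p 0.15). Ubap2l (chromosome 3) was nearly level across the 6 libraries, at 271 to 292 CPM in WT, against 273 to 283 in Mark3-KO. Its log2 fold change stood at 0.00 (SE 0.08, edgeR adjusted p 0.981), the narrowest SE among the 10 members. Usp10 (chromosome 8), the deubiquitinase that opposes assembly, was on the lower side, with 68.9, 56.0 and 45.4 CPM in WT, against 39.8, 36.1 and 26.2 in Mark3-KO. The groups did not overlap, but WT replicate 3 and Mark3-KO replicate 1 lay near each other, and the log2 fold change stood at -0.74 (SE 0.21, edgeR adjusted p 0.0526). Usp10 passed the threshold without WT replicate 3 (-0.89, edgeR adjusted p 0.0319) or Mark3-KO replicate 1 (-0.87, edgeR adjusted p 0.0399). Tia1, Tial1 and Fmr1 passed in the same runs, as did 6460 of 19615 and 6265 of 19528 tested genes. With any other single library left out, Usp10 lay between -0.79 and -0.58 (edgeR adjusted p 0.149 to 0.157).

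The granule RNA-binding proteins of the TIA family were on the higher side. Tia1 (chromosome 6), a translational silencer, measured 51.7, 57.9 and 64.0 CPM in WT, against 72.2, 80.9 and 86.0 in Mark3-KO. Its paralog Tial1 (chromosome 7) measured 61.4, 67.6 and 82.3 CPM in WT, against 85.2, 99.3 and 104 in Mark3-KO. Both genes had groups without overlap and nearly the same log2 fold change, 0.46 for Tia1 (SE 0.12, edgeR adjusted p 0.0506) and 0.45 for Tial1 (SE 0.14, edgeR adjusted p 0.0591). Fmr1 (chromosome X), which encodes the polysome-associated protein lost in fragile X syndrome, measured 72.0, 83.7 and 99.9 CPM in WT, against 106, 127 and 146 in Mark3-KO. Its log2 fold change stood at 0.57 (SE 0.17, edgeR adjusted p 0.0534), and the highest WT and lowest Mark3-KO library were close.

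Pabpc1 (chromosome 15), the cytoplasmic poly(A)-binding protein gene, was the most abundant member in every library. It measured 1390, 1370 and 1500 CPM in WT, against 1580, 1640 and 1700 in Mark3-KO, without overlap (log2 fold change 0.21, SE 0.09, edgeR adjusted p 0.118). Atxn2 (chromosome 5), which encodes a partner of the poly(A)-binding protein, measured 88.9, 84.2 and 74.6 CPM in WT, against 76.1, 75 and 79.6 in Mark3-KO. The groups of Atxn2 overlapped, with a log2 fold change of -0.10 (SE 0.10) and an edgeR adjusted p of 0.441.

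Ordered by level per kb of the longest transcript, the WT libraries had Pabpc1 (487), Caprin1 (90.9), Ubap2l (68.8), G3bp2 (36.4), G3bp1 (35.7), Fmr1 (19.3), Tial1 (15.8), Usp10 (15.2), Tia1 (12.9) and Atxn2 (11.9 CPM per kb). Neighbours whose library ranges overlapped in WT were G3bp2 and G3bp1, and each adjacent pair from Fmr1 down to Atxn2. In Mark3-KO the first 4 places were the same, G3bp1 stood at rank 8 behind Fmr1 (28.6), Tial1 (21.6) and Tia1 (17.8 CPM per kb), and Usp10 was last (9.13 CPM per kb). There, G3bp1 overlapped with Tia1 and not with Atxn2 (11.1 CPM per kb), the next below. This order depends on the length used. With all annotated exon bases, G3bp1 had 33.9 CPM per kb in WT, above G3bp2 (17.8) and Ubap2l (15). In Mark3-KO it then had 14.1 CPM per kb, beside 14.1 for Fmr1, 13.9 for Tial1 and 5.06 for Tia1.

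Across the members, 1 of 10 had an adjusted p below 0.05 in edgeR's test, and it was G3bp1, where 0.216% of the 19017 tested genes did (0.168% lower, 0.0473% higher). Since the list was built around that gene, nothing is read from this count. It went to 0 of 10 without WT replicate 1, WT replicate 2, Mark3-KO replicate 2 or Mark3-KO replicate 3, where 4 or 5 members had an unadjusted p below 0.05 (with all libraries 5 members did, and 45.7% of tested genes) and the log2 fold change of G3bp1 stayed between -1.28 and -1.15. It went to 5 of 10 without WT replicate 3, where 6460 of 19615 tested genes passed, and to 5 of 10 without Mark3-KO replicate 1, where 6265 of 19528 did. The threshold lay at an edge: 4 members (Usp10, Tia1, Tial1 and Fmr1) had an edgeR adjusted p between 0.05 and 0.06, as did 5413 tested genes.

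With a threshold of 0.1 in edgeR's test, 3 members were higher (Tia1, Tial1 and Fmr1) and 2 lower (G3bp1 and Usp10), 5 of 10 against 43.7% of tested genes (19.7% higher, 24% lower). The DESeq2 Wald test called the same number at 0.05, 3 higher and 2 lower, against 36.3% of tested genes (14.5% higher, 21.8% lower). Groups without overlap in CPM were found for 5 members on the higher side and 2 on the lower side, 7 of 10, against 25.8%, 27.5% and 53.3% of tested genes. These shares are near the background, and the median log2 fold change of the 10 members was 0.13, against 0.02 over all tested genes.

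In these libraries the fold change of a gene moved with the GC content of its transcripts. In the 10% of tested genes with the lowest GC content (up to 41.5%) the median log2 fold change was 0.63, and in the 10% with the highest (from 57.3%) it was -1.33. The members ran from Fmr1 with 38.6% GC to Usp10 with 52% GC, and those with higher GC content had lower fold changes, with G3bp1 below the rest. Pearson's r between GC content and log2 fold change was -0.83 over the 10 members, -0.93 over the 9 without G3bp1, and -0.74 over 18965 tested genes, where all points share the same 6 libraries.

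The trend with GC content separated the WT from the Mark3-KO libraries. A correction for it therefore also takes out any knockout difference that goes with GC content, and these cannot be told apart. After a correction that fits a smooth curve of GC content to each library, Fmr1 moved from 0.57 to -0.11, Tia1 from 0.46 to -0.05 and Tial1 from 0.45 to -0.06. Pabpc1 moved from 0.21 to -0.04 and Caprin1 from 0.19 to -0.24. The 5 members on the higher side with groups that did not overlap therefore all turned sign, but none passed the threshold below 0. Tia1, Tial1 and Pabpc1 were left near 0 (SE 0.05 each, edgeR adjusted p 0.612, 0.522 and 0.666). The SE was 0.05 for Fmr1 (edgeR adjusted p 0.187) and 0.09 for Caprin1 (edgeR adjusted p 0.16). Usp10 moved from -0.74 to -0.47 (SE 0.14, edgeR adjusted p 0.127), G3bp2 from 0.06 to -0.34 (SE 0.13, edgeR adjusted p 0.168), Ubap2l from 0.00 to -0.21 and Atxn2 from -0.10 to -0.15.

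G3bp1, with 49.5% GC, stayed at -1.25 (SE 0.12) after the correction, and 1.59% of tested genes were lower than it on that scale, against 8.67% before. Tested genes of 49.3 to 51.1% GC had a median log2 fold change of -0.06 before the correction. The correction could therefore move a gene of that GC content little, and nothing is read from G3bp1 staying in place. The corrected log2 fold changes lay below 0 for 10 of 10 members, against 49% of tested genes, with a median of -0.18 against 0.01. Apart from G3bp1, the corrected edgeR adjusted p of the members was 0.115 to 0.666. The members share the same libraries and were listed with results known, so nothing is read from their common sign. The number past the threshold stayed at 1 of 10, against 0.394% of tested genes (0.284% lower).

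**Figure D2:**
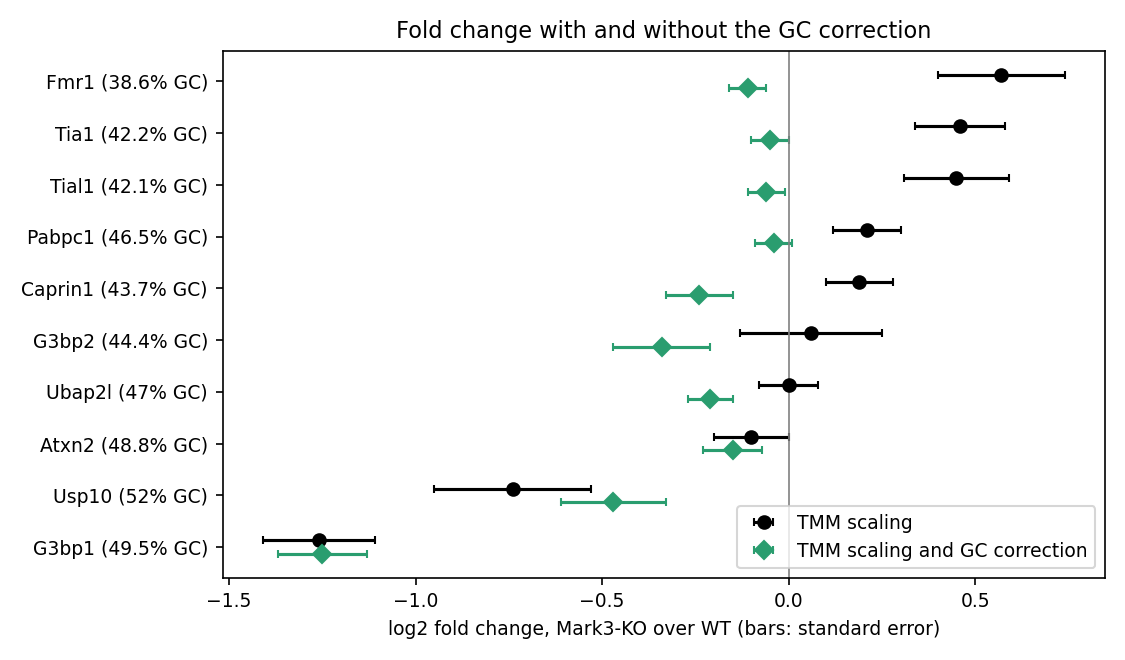
Log2 fold change of Mark3-KO over WT (x axis) for each member with its GC content, as fitted with TMM scaling (black circles) and with the GC correction added (green diamonds), with bars for the standard error. G3bp1 stays at -1.26 and -1.25, while Fmr1, Tia1, Tial1, Pabpc1 and Caprin1 cross from above 0 to below 0.

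**Figure D3:**
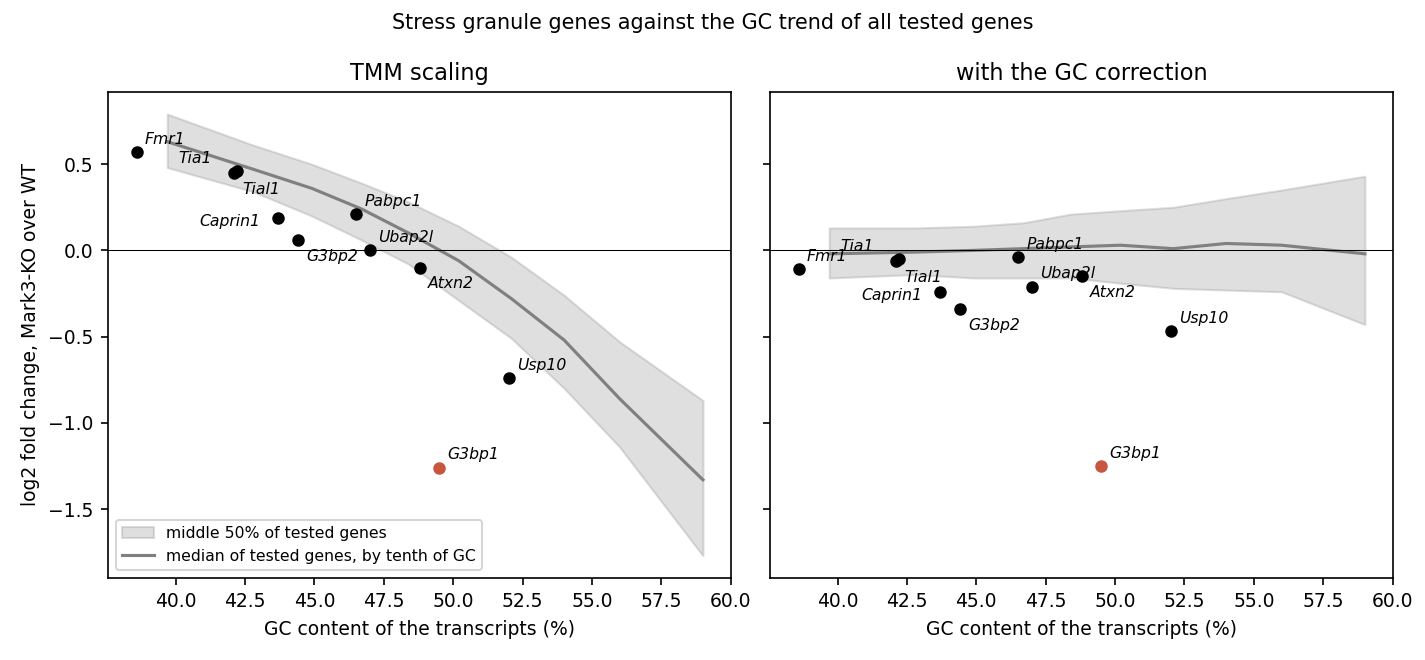
Log2 fold change (y axis) against GC content of the transcripts (x axis) for the members (points), over the median (line) and middle 50% (band) of tested genes in 10 equal groups by GC content, before (left) and after (right) the GC correction. On both sides G3bp1 (red), Usp10, G3bp2, Caprin1 and Ubap2l lie below the band, with G3bp1 farthest from it. Tia1, Tial1 and Pabpc1 lie within it, Atxn2 lies near its lower edge, and Fmr1 lies just left of where it starts.

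Library by library, the genes in that highest 10% had a median log2 ratio to their mean over libraries of 1.15, 0.72 and 0.11 in WT, against -0.21, -0.71 and -1 in Mark3-KO, so of the pairs across the groups WT replicate 3 and Mark3-KO replicate 1 stood nearest to each other. In that pair, which is 1 library per group, G3bp1 was at 227 and 120 CPM, G3bp2 at 165 and 118 CPM, and Usp10 at 45.4 and 39.8 CPM. Fmr1 was at 99.9 and 106 CPM, Tial1 at 82.3 and 85.2 CPM, and Tia1 at 64 and 72.2 CPM. Caprin1 was at 584 and 617 CPM, Pabpc1 at 1500 and 1580 CPM, Ubap2l at 292 and 283 CPM, and Atxn2 at 74.6 and 76.1 CPM. G3bp2 was lower in Mark3-KO replicate 1 than in any other library, and the next value was WT replicate 1. Without WT replicate 1 and Mark3-KO replicate 3, the libraries farthest apart on that axis, the log2 fold change of G3bp1 was -1.09 and that of G3bp2 was -0.15. The part of GC content in the members' fold changes was not tested beyond the correction.

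The gene model of G3bp1 has 12 exons, and its last exon of 5380 bases makes up 80.3% of the longest transcript of 6703 bases. The microRNA gene Mir7652 (chromosome 11, 55501226 to 55501281, plus strand) lies on the same strand in the 3' untranslated part of that exon, and all 56 of its bases are G3bp1 exon bases. Its mature sequences, shown because this feature and G3bp1 share bases and their counts differ between the groups in opposite directions, are given with the seed (bases 2 to 8) in capitals, from RefSeq (GRCm38.p6).
mmu-miR-7652-5p: uAAGGGCAcagggauuucaggc
mmu-miR-7652-3p: uCUGGCUUuccuguggcuucu

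Mir7652 had 1 count in each WT library and 37, 32 and 26 counts in the Mark3-KO libraries. The ratio of Mark3-KO to WT was 29.3 on TMM-scaled library sizes (exact 95% binomial interval 9.74 to 145, counting error only). The counts on Mir7652 were 0.00696% of those on G3bp1 in WT and 0.483% in Mark3-KO. Adding them to G3bp1 left its log2 fold change at -1.26 (SE 0.15). A library of long RNA does not measure a mature microRNA, and how reads over shared bases were assigned is not given in the sources used here.

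**Figure D4:**
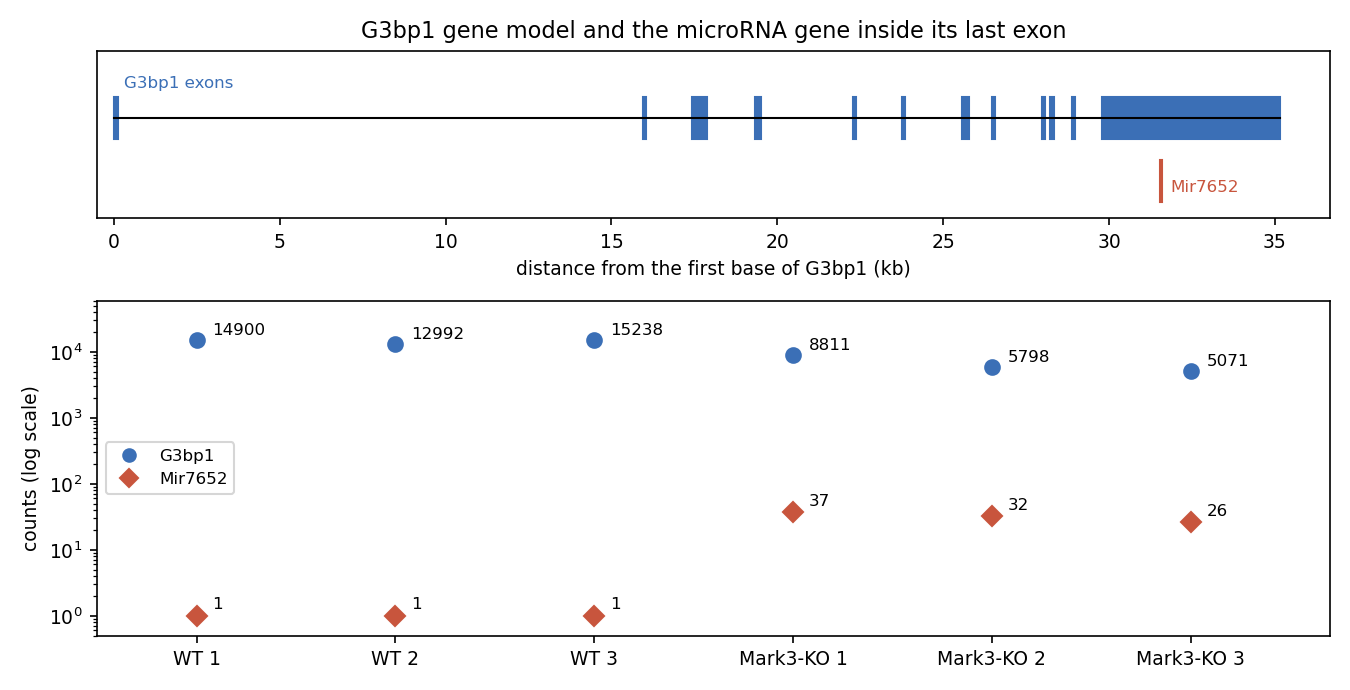
Top, the exons of G3bp1 and the place of Mir7652, by distance from the first base of G3bp1 in kb. Bottom, counts of G3bp1 (circles) and Mir7652 (diamonds) in each library on a log axis: G3bp1 is at 12992 to 15238 in WT and 5071 to 8811 in Mark3-KO, and Mir7652 at 1 in WT and 26 to 37 in Mark3-KO.

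Other members share exon bases with a neighbour too, and the library kit does not mark strand. Atxn2 shares 99 exon bases with Sh2b3, an adaptor gene on the opposite strand, which measured 43.5, 43.1 and 34.7 CPM in WT, against 26.2, 10.4 and 9.91 in Mark3-KO (log2 fold change -1.38, SE 0.39, edgeR adjusted p 0.0524). Sh2b3 was at -2 without Mark3-KO replicate 1 (edgeR adjusted p 0.0125), where 6265 of 19528 tested genes passed. With any other single library left out it lay between -1.49 and -1.15 (edgeR adjusted p 0.0512 to 0.154). After the GC correction it was at -0.08. Its counts were 48.8% of those of Atxn2 in WT and 21.1% in Mark3-KO. Summing Atxn2 with Sh2b3 gave a log2 fold change of -0.41 (SE 0.12), against -0.10 for Atxn2 alone. The sum takes in all counts of Sh2b3, so it does not measure what reads over the 99 shared bases add to Atxn2. G3bp2 shares 2050 bases with the lincRNA gene Gm26582 on the opposite strand, whose counts were 6.77% of its own in WT and 7.86% in Mark3-KO, and the sum was at 0.08. For Usp10, Tia1, Ubap2l and Fmr1 the sum with their overlapping genes moved the log2 fold change by at most 0.03.

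The genes whose pattern over the 6 libraries lay nearest to that of G3bp1, by the root mean square difference of centred log2 CPM among 8841 genes of at least 10 CPM, were Fbxo34 (0.05), Pfkfb3 (0.09), Slc6a9 (0.09), Lrrc41 (0.10) and Abl1 (0.11). They encode an F-box protein, a regulator of glycolysis, a glycine transporter, a leucine-rich repeat protein and a tyrosine kinase. Fbxo34 measured 29.5, 24.7 and 24.4 CPM in WT, against 12.6, 11 and 8.72 in Mark3-KO. After the GC correction the 5 genes separated from G3bp1, with log2 fold changes of -0.97 for Fbxo34, -0.91 for Pfkfb3, -0.24 for Slc6a9, -0.68 for Lrrc41 and -0.69 for Abl1. They had 52 to 56.7% GC, against 49.5% for G3bp1. The correction raises genes of higher GC content more, so it separates them from G3bp1 by construction.

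Beyond the 10 members, 44 other genes of stress granule proteins were all tested, and 0 passed in edgeR's test (25 had an unadjusted p below 0.05, against 45.7% of tested genes, and the DESeq2 Wald test called 13 higher and 9 lower, against 14.5% and 21.8%). Their median log2 fold change was 0.15, and -0.05 after the GC correction. Nufip2, which encodes a G3BP-binding RNA-binding protein, measured 102 ± 13.6 CPM in WT, against 156 ± 22.7 in Mark3-KO, with a log2 fold change of 0.61 that became 0.15 after the correction. Larp4, an mRNA-stabilising La-related gene, measured 99.6 ± 11.3 and 145 ± 15.6 CPM (0.54, and -0.04 corrected). Snd1, which encodes a Tudor nuclease, was on the lower side at 282 ± 35.7 and 168 ± 36.3 CPM (-0.75, and -0.44 corrected). The Fmr1 paralog Fxr2 was also lower, at 79.0 ± 11.4 and 52.8 ± 5.85 CPM, but its log2 fold change turned from -0.58 to 0.24. The edgeR adjusted p was 0.0506 for each of these 4 genes.

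Upstream of the granules, 15 genes of the eIF2 alpha kinases, eIF2, its exchange factor eIF2B and the opposing phosphatase were tested, and 0 passed in edgeR's test (10 at an unadjusted p below 0.05, against 45.7% of tested genes, and 4 higher and 5 lower with the DESeq2 Wald test, against 14.5% and 21.8%). Their median was -0.05, and -0.04 after the GC correction. Eif2ak2, which encodes the RNA-activated kinase PKR, measured 154 ± 22.3 CPM in WT, against 248 ± 51.0 in Mark3-KO (log2 fold change 0.69, edgeR adjusted p 0.0506), and 0.30 was left after the correction. Ppp1r15a, the inducible subunit of the eIF2 alpha phosphatase also called GADD34, measured 35.1 ± 7.77 and 17.4 ± 4.30 CPM (-1.01, and -0.13 corrected). Eif2b2 measured 36.3 ± 9.20 and 16.3 ± 4.55 CPM (-1.16, and -0.28 corrected). The catalytic phosphatase subunit Ppp1ca turned from -0.48 to 0.17.

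Among 27 cap-binding and scanning initiation factors, 0 passed in edgeR's test (16 at an unadjusted p below 0.05, against 45.7% of tested genes, and 5 higher and 8 lower with the DESeq2 Wald test, against 14.5% and 21.8%), with a median of -0.18 and of -0.04 after the GC correction. Eif4ebp1, a repressor of the cap-binding protein eIF4E, measured 138, 105 and 73.4 CPM in WT, against 56.0, 41.0 and 33.1 in Mark3-KO. Like G3bp1 it moved little with the GC correction, from -1.28 to -1.22 (SE 0.26, edgeR adjusted p 0.102). With 50% GC, it too lay where the correction moves genes little. Eif4h moved from -0.57 to -0.03, Eif3j1 from 0.62 to 0.27, and Eif3g turned from -0.84 to 0.20.

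Of 30 genes of processing bodies and mRNA decay, granules that hold mRNAs with the decapping machinery, 0 passed in edgeR's test (19 at an unadjusted p below 0.05, against 45.7% of tested genes, and 4 higher and 10 lower with the DESeq2 Wald test, against 14.5% and 21.8%). The list's median was 0.06, and -0.06 after the GC correction, where 1 of 30 passed, against 0.394% of tested genes. This was Tnrc6b, a scaffold of microRNA silencing, at 109, 114 and 90.2 CPM in WT, against 64.6, 57.5 and 60.4 in Mark3-KO, whose log2 fold change went from -0.78 (SE 0.12, edgeR adjusted p 0.0506) to -0.99 (SE 0.13, edgeR adjusted p 0.049). The helicase gene Upf1 moved from -1.47 to -0.30, the decapping scaffold Edc4 from -1.07 to -0.18, and the deadenylase subunit Cnot3 turned from -0.63 to 0.15.

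**Figure D5:**
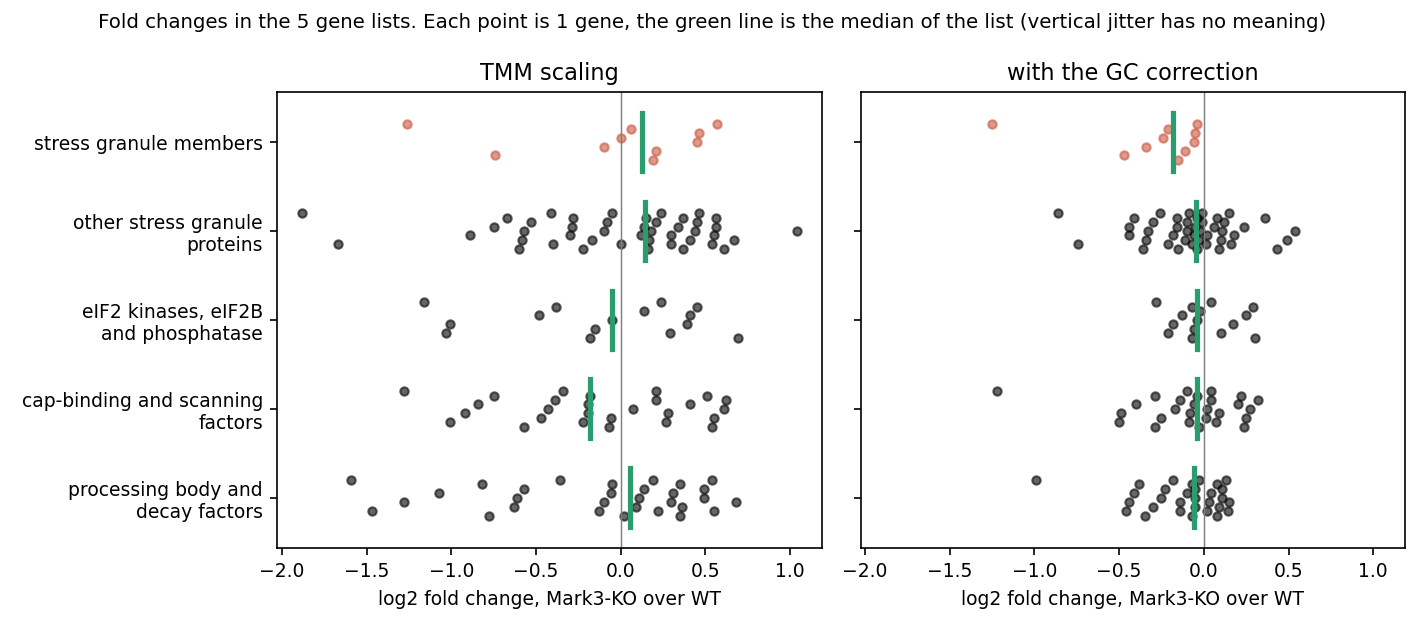
Log2 fold change of Mark3-KO over WT (x axis) for each gene of the 5 lists, with TMM scaling (left) and with the GC correction (right), where the green line is the median of a list. The lists span both sides of 0 on the left and have narrower ranges on the right, where the stress granule members all lie below 0. On the right G3bp1 at -1.25, Eif4ebp1 at -1.22 and Tnrc6b at -0.99 are the lowest of their lists.

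The libraries held 56925883 to 71445243 counts. The targeted gene Mark3 fell from 116 ± 2.78 to 48.0 ± 4.14 CPM (log2 fold change -1.27, edgeR adjusted p 0.0153), and did not pass without WT replicate 2 (edgeR adjusted p 0.128), Mark3-KO replicate 2 (0.0798) or Mark3-KO replicate 3 (0.0681). All 13 osteoblast markers had counts, among them Col1a1, Runx2, Sp7 and Alpl at 17.4 CPM or more in every library, and Bglap was lowest at 0.146 CPM. Their summed level was 18800 to 39200 CPM in WT and 13200 to 15000 CPM in Mark3-KO, without overlap, with Col1a1 at means of 13900 and 4170 CPM. The median log2 fold change of these markers was -0.62, and -0.21 after the GC correction, and 8 of 13 were lower without overlap, against 27.5% of tested genes. In edgeR's test 0 of 13 passed (8 had an unadjusted p below 0.05, against 45.7% of tested genes, and the DESeq2 Wald test called 1 higher and 7 lower, against 14.5% and 21.8%). The summed level of 12 macrophage and osteoclast markers was 395 to 442 CPM in WT, against 417 to 472 in Mark3-KO, and that of 8 endothelial markers 4.53 to 4.58 and 4.47 to 4.71 CPM. Lyz2 (169 to 235 CPM) and Ctsk (168 to 200 CPM) made up most of the macrophage and osteoclast sum. Of these 12 markers the DESeq2 Wald test called 2 higher and 3 lower, against 14.5% and 21.8% of tested genes. Skeletal muscle markers summed to 18.9 to 30.5 CPM in WT, against 8.93 to 15.2 in Mark3-KO over 12 genes, with Myf5 at 0 in every library, and the part of the osteoblast and muscle markers in the members' values was not tested.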

How the data were processed

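The deposited table holds whole-number counts per Ensembl gene for 6 libraries. Per the submitters' processing notes, the authors used FastQC, HISAT2 2.0.5, StringTie and DESeq2 with GRCm38; order, settings and read assignment are not given in the sources used here. Per the labels the kit was TruSeq RNA, which does not keep the strand. Symbols, coordinates, lengths and GC content came from GENCODE M21 (GRCm38), which matched 51719 of 51912 IDs. Genes were filtered with filterByExpr, scaled by TMM and tested with edgeR 4.0.16 (quasi-likelihood, R 4.3.3), with Benjamini-Hochberg adjustment over 19017 genes at 0.05. Fold changes are log2 of Mark3-KO over WT, and SE is its size divided by the root of the F statistic. The GC correction enters, as offsets, a curve of GC content (natural spline, 6 degrees of freedom) for each library, and 52 tested genes without a GC value got none. Log2 CPM for the pattern search used a prior count of 2.

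Members and lists were chosen with earlier results of these data known. The rule for named genes took Mark3, the 10 members, genes sharing exon bases with a member, up to 4 genes with the smallest p in each list and the 5 nearest patterns to G3bp1. Not every gene it takes is reported. Alternatives were other scalings, filters and thresholds, DESeq2 1.42.0, limma-voom 3.58.1, the replicate block, the GC correction, summed overlapping genes and leaving out libraries. Scripts were tested on simulated counts without a GC trend, so the GC correction was not tested on counts that have one. No 2 libraries were copies, with a chi-square per degree of freedom of 65.4 or more in each pair.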

Additional observations from a re-analysis of the deposited data

How the results depend on the processing

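The count of all genes past the threshold, 41 in edgeR's test, was 4510 with library size alone, 27 with limma-voom, 6894 by DESeq2's Wald test, 5266 with a filter of 1 CPM, 75 with the GC correction, 8317 at a threshold of 0.1, and 0 without WT replicate 1 and Mark3-KO replicate 3 together (3258 at an unadjusted p below 0.05). Leaving out each library gave 0 to 6460, with 0 without WT replicate 2 (5929 at an unadjusted p below 0.05). Of the members, 1 became 3 with library size alone, 5 with the DESeq2 Wald test, a filter of 1 CPM or a threshold of 0.1, 0 without WT replicate 1 and Mark3-KO replicate 3 (1 at an unadjusted p below 0.05), and 0 to 5 with each library left out. The correlations of same-numbered deviations were 0.33, -0.03 and 0.29, which does not decide whether the replicate numbers pair the libraries. The median log2 ratio of the genes highest in GC content fell from replicate 1 to replicate 3 in both groups. It was 1.15, 0.72 and 0.11 in WT, against -0.21, -0.71 and -1 in Mark3-KO. The replicate block took the SE of Usp10 from 0.21 to 0.07 and that of Ubap2l from 0.08 to 0.06. With the replicate block 8487 genes and 7 members passed, and 1035 genes and 2 members with the GC correction and the replicate block together.

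Signs turned as follows. With the GC correction, and in brackets with the GC correction and the replicate block, the log2 fold change was -0.34 (-0.36) for G3bp2, -0.24 (-0.24) for Caprin1, -0.05 (-0.05) for Tia1, -0.06 (-0.06) for Tial1, -0.04 (-0.04) for Pabpc1, -0.11 (-0.11) for Fmr1 and -0.04 (-0.04) for Larp4. It was 0.24 (0.24) for Fxr2, 0.17 (0.17) for Ppp1ca, 0.20 (0.20) for Eif3g, 0.15 (0.15) for Cnot3 and 0.54 (0.53) for Atxn2l. G3bp2 was also at -0.01 without WT replicate 1 and at -0.08 without Mark3-KO replicate 3, and leaving out both gave -0.15. Atxn2 was at 0.01 with library size alone. The cause was not tested. G3bp1 kept its direction in each alternative run, from -1.42 to -1.09.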

Other observations

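In the list of other stress granule genes, 3 were chosen after their values were seen. Tardbp had the highest and Prrc2a the lowest log2 fold change before the GC correction. Atxn2l had the highest after it, where Prrc2b was lowest at -0.86. Tardbp, which encodes the RNA-binding protein TDP-43, measured 108, 122 and 130 CPM in WT and 150, 287 and 304 CPM in Mark3-KO. Its log2 fold change stood at 1.04 (SE 0.26, edgeR adjusted p 0.0506), and 0.49 after the GC correction. Prrc2a measured 600, 411 and 168 CPM in WT and 163, 90.3 and 66.4 CPM in Mark3-KO, so WT replicate 3 and Mark3-KO replicate 1 were nearly level. With 59.9% GC, Prrc2a moved from -1.88 to -0.44. Atxn2l, the paralog of Atxn2, measured 221, 175 and 147 CPM in WT and 129, 116 and 114 CPM in Mark3-KO, and turned from -0.60 to 0.54 after the correction.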
